A study of Mus musculus with 14 samples.

Results

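The 10 genes described here encode the core of the inflammasome and the pores it opens: the sensors Nlrp3, Nlrc4, Nlrp1b, Mefv and Aim2, the adaptor Pycard, the inflammatory caspases Casp1 and Casp4, and the gasdermins Gsdmd and Gsdme. They were chosen by symbol for their role, with earlier results of these data known. They make up 10 of the 17890 genes in the expression table of the study's first phase. The study asked what a history of diabetes leaves behind in cells grown from bone marrow. Male C57BL/6J mice, 8 weeks old at the start, were randomised. Those of the diabetic group (D, 4 libraries) were made diabetic with streptozotocin, which kills the beta cells of the pancreas; the dose was 42 to 45 mg/kg on each of 5 days, after a 12 h fast. They were kept when their glucose exceeded 16.9 mmol/L. After 6 weeks of hyperglycaemia, marrow progenitors of diabetic mice and of healthy controls (M, 4 libraries) were grown for 7 days with the macrophage growth factor M-CSF. Both groups were cultured at 5 mmol/L glucose, so the cells compared had left the diabetic milieu a week earlier. The control columns carry the letter M, which no label explains; it was assigned to the healthy mice by elimination, and if the letters had the opposite meaning, all directions given here would be reversed. Whether the 4 libraries of a group stem from 4 mice is not labelled, so p-values speak of the variation among these libraries, which could be technical in part. The 6 samples of a second phase were not analysed here.

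An inflammasome is a protein platform that forms in the cytosol when a sensor meets a sign of infection or damage. Most sensors recruit the adaptor ASC, the product of Pycard, which clusters and activates caspase-1, and caspase-1 then matures the precursors of interleukin-1 beta and interleukin-18 and cuts gasdermin D, whose freed end forms pores in the plasma membrane. Mouse Casp4 encodes caspase-11, which binds bacterial lipopolysaccharide directly and also cuts gasdermin D. Gasdermin E forms pores of the same kind. Transcript levels of these genes set how much of each part can be made, and most activation steps happen on the protein and leave no trace in RNA.

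Library totals ran from 19048195 to 20027967 estimated counts, and 12839 genes held enough counts for testing, all 10 members among them. The first principal component, with 63.5% of the variance, separated D from M, with D replicate 1 nearest to the M libraries and D replicate 3 farthest. The cells are labelled as macrophages. Their libraries held Lyz2, a macrophage gene that other myeloid cells, neutrophils among them, also express. Lyz2 was at 8145 ± 1911 CPM (counts scaled to a common library size, with TMM factors) in D and 4606 ± 303 in M (SD, n = 4). The macrophage gene Csf1r, which encodes the M-CSF receptor, was at 209 ± 22.5 and 162 ± 9.97 CPM. The tissue macrophage genes C1qa, Mertk and Mrc1 were at 2.00, 0.739 and 2.59 CPM in D and 0.723, 1.06 and 2.05 CPM in M. Every other gene of the macrophage list had a higher mean CPM than these in both groups. Among them, Adgre1 was at 87.3 and 46.7 CPM in D and M, Cd68 at 179 and 192 CPM, and C1qb at 10.8 and 4.00 CPM. Neutrophil genes were present in quantity: S100a8 at 12286 ± 2215 CPM in D and 8996 ± 609 in M, and Cxcr2 at 826 ± 200 and 397 ± 104 CPM. Markers of more than one marrow cell type were thus present, and in bulk RNA fewer cells of a type and less RNA per cell cannot be told apart.

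Of the 10 members, 6 passed the test as higher and 1 as lower in D at an adjusted p of 0.05 (edgeR quasi-likelihood test, Benjamini-Hochberg adjustment over all genes tested). That is 70% of the members. Over all 12839 genes, 34.7% passed in either direction, 17.4% as higher and 17.3% as lower, so calls in both directions were common across the table. The genes that rose were Nlrp3, Mefv, Aim2, Casp1, Casp4 and Gsdme, and the gene that fell was Nlrc4. Nlrp1b, Pycard and Gsdmd did not pass. The median log2 fold change of the 10 was 0.42, against -0.03 over all tested genes, and no member reached a 2-fold difference. In CPM, 5 members were higher in every D library than in any M library and 1 was lower in every D library, beside 34.7% of all tested genes that separated in either direction, 16.3% with D above and 18.4% with D below. Without D replicates 1 and 3, the ends of the D group, the same test called 6 members, all higher.

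**Figure D1:**
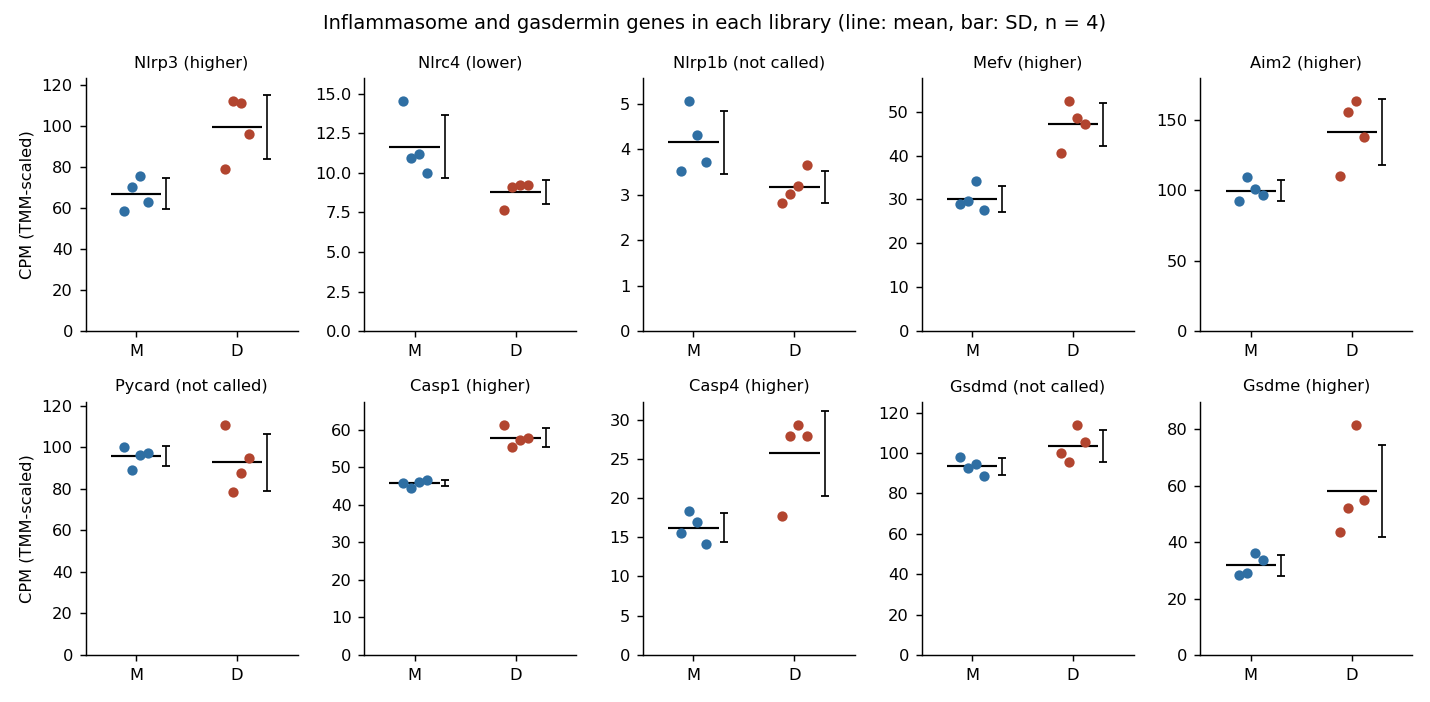
Level of each member in each library, in CPM scaled by TMM (y axes from 0), for the 4 M and 4 D libraries; points are replicates 1 to 4 from left to right, horizontal lines group means and vertical bars the SD. The D points of Nlrp3, Mefv, Aim2, Casp1 and Gsdme all sit above their M points, those of Nlrc4 all sit below, and the Pycard and Gsdmd points overlap.

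**Figure D2:**
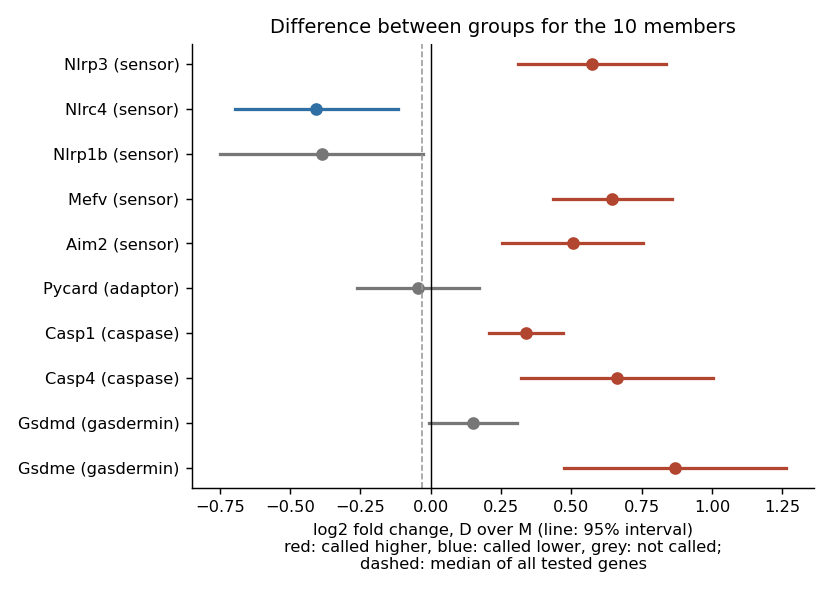
Log2 fold change of each member, D over M (x axis), with its 95% interval from the edgeR fit; the dashed line at -0.03 is the median of the 12839 genes tested. The intervals of the 6 genes called higher lie wholly above 0, from Casp1 at 0.34 to Gsdme at 0.87, and that of Nlrc4 lies wholly below.

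Promoters are shown for members whose windows just before the start of transcription held a searched motif or stood out in base composition; the Nlrp1b entry with a match is named only. RefSeq entries on GRCm38.p6 were found for 9 of the 10 members (12 entries; Gsdmd had none), and the 250 bases before each start were searched on both strands for the kappaB consensus, the binding sequence of NF-kappaB, for the PU.1 site GAGGAAGT, for the interferon-stimulated response element core and for the AP-1 site TGANTCA. The kappaB consensus was found in 3.90% of all 32851 promoters, and among the members in Casp4 and in 1 Nlrp3 entry. Capitals mark the kappaB match in these promoters, at chr9:5308599-5308848 (plus strand) for Casp4 and chr11:59541319-59541568 (plus strand) for Nlrp3:
Casp4: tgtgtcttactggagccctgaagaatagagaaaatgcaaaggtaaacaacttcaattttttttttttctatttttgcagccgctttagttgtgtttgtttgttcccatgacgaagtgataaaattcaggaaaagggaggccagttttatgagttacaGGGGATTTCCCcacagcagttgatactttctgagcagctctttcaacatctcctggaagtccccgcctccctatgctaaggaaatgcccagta
Nlrp3: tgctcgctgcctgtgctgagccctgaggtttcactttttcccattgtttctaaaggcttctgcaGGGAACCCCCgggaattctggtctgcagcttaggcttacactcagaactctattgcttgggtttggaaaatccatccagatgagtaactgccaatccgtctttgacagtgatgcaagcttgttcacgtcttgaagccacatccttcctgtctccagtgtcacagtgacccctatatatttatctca
The Casp4 capitals hold 2 overlapping matches, between 93 and 83 bases before the start, and those of Nlrp3 lie 186 to 177 bases before it. In Nlrp3 the match reads on the opposite strand. A further Nlrp3 entry, at chr11:59542436-59542685, held none. Bases just after each start were looked for only in transcripts of GENCODE, an annotation other than RefSeq. Those of this further entry were found in a GENCODE transcript of Nlrp3, but those of the Nlrp3 entry shown were in none. In RefSeq, however, the Nlrp3 gene begins at 59541569, the base just after the window shown.

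The PU.1 site, the binding sequence of the transcription factor that drives myeloid fate, was found in 2.44% of all promoters. Among the members it was in Aim2, Pycard and 1 Nlrp1b entry. The bases just after the start of that Nlrp1b entry were in no GENCODE transcript of Nlrp1b. Capitals mark it in Aim2, at chr1:173420354-173420603 (plus strand), which rose, and in Pycard, at chr7:127993868-127994117 (minus strand, where the match reads on the opposite strand), which did not pass:
Aim2: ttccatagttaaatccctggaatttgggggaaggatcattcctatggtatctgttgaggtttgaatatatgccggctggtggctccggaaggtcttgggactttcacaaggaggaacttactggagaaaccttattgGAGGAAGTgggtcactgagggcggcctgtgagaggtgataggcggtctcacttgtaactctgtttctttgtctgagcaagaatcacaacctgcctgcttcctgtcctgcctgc
Pycard: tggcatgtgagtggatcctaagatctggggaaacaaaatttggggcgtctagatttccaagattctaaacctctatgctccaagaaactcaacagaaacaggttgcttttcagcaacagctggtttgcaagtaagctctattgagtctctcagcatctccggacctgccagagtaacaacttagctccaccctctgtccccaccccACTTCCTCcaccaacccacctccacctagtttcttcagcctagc
The interferon response core stood in 2.98% of all promoters and the AP-1 site in 6.75%, and these letters were in none of the 12 windows. The Gsdme promoter, at chr6:50261770-50262019 (minus strand), differed from the others in base composition: it held 64.0% G and C and 15 CG pairs, in capitals here, against medians of 52.4% and 6 over all promoters, and 27.3% of all promoters held at least as many:
Gsdme: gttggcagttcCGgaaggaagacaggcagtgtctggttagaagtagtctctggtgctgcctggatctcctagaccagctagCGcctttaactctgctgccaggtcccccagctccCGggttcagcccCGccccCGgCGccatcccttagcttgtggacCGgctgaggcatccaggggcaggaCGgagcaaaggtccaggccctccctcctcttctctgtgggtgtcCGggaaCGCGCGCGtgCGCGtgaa
A match is a description of the letters only, and binding was not measured.

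The sensors moved in both directions. Nlrp3 senses potassium loss and many other signs of cell damage, and its gene lies on chromosome 11 (59541569 to 59566955). Nlrp3 stood at 79.1, 112, 111 and 96.2 CPM in D replicates 1 to 4 and at 58.9, 70.4, 75.7 and 62.9 CPM in the M replicates. Every D library lay above every M library, with D replicate 1 close to the highest M library. The increase was 1.49-fold (log2 0.57 ± 0.12 SE, adjusted p = 0.00465). In TPM, which divides by transcript length, Nlrp3 was at 45.7 ± 6.52 in D and 32.8 ± 4.24 in M, and there the lowest D value, 37.52, and the highest M value, 37.66, overlapped. The call ended when only curated transcripts were counted (log2 0.50, adjusted p = 0.0867) or only the most abundant transcript (0.54, adjusted p = 0.0824).

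Mefv encodes pyrin, which responds to certain bacterial toxins, and lies on chromosome 16 (3706974 to 3718211). Its level was 40.5, 52.3, 48.5 and 47.2 CPM in D and 29.1, 29.6, 34.3 and 27.5 CPM in M. The groups did not overlap, and the increase was 1.56-fold (log2 0.65 ± 0.10, adjusted p = 0.000813). Aim2, a sensor of double-stranded DNA in the cytosol, lies on chromosome 1 (173349547 to 173466040) and overlaps Cadm3, so reads of that gene could be shared. Aim2 was at 110, 155, 163 and 138 CPM in D and at 92.3, 109, 101 and 96.5 CPM in M. D replicate 1 lay just above the highest M library and the other 3 D libraries well above it. The increase was 1.42-fold (log2 0.50 ± 0.11, adjusted p = 0.00699).

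Nlrc4 went the other way. Its protein is the platform for the NAIP receptors of flagellin and bacterial secretion systems, and the gene lies on chromosome 17 (74426255 to 74459144). It was scarce: 7.65, 9.09, 9.21 and 9.22 CPM in D and 14.5, 10.9, 11.2 and 9.99 CPM in M, or 152 to 178 counts and 199 to 297 counts per library. All D libraries lay below all M libraries, with M replicate 1 standing above the other 3. The decrease was 1.33-fold (log2 -0.41 ± 0.13, adjusted p = 0.0342). With the replicate number as a block the value was -0.40 with an adjusted p of 0.0645, and leaving out D replicate 1, 2 or 4 or M replicate 1, 2 or 3 ended the call as well (log2 -0.28 without M replicate 1 to -0.44 without M replicate 2, adjusted p = 0.0535 to 0.0871).

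Nlrp1b, whose product in some mouse strains senses proteases such as anthrax lethal factor and loss of DPP9, was the scarcest member. The gene lies on chromosome 11 (71152574 to 71242514), overlapping the pseudogene Nlrp1c-ps. It stood at 2.82, 3.01, 3.2 and 3.65 CPM in D and at 3.52, 5.05, 4.31 and 3.71 CPM in M, from 56 to 101 counts in a library. D replicate 4 lay above M replicate 1, so the groups overlapped in CPM. In TPM they did not, at 0.84 to 1.08 in D and 1.14 to 1.66 in M. The log2 difference was -0.39 (95% interval -0.75 to -0.03) and did not pass after adjustment (adjusted p = 0.0886). Nlrp1b belongs to a family of near-identical copies, and how reads shared with its paralogs were counted is not given in the sources used here. With library totals in place of TMM factors it passed as lower (-0.49, adjusted p = 0.0364).

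Pycard, the only adaptor on the list, did not pass the test. The gene lies on chromosome 7 (127991373 to 127993867) and was at 111, 78.3, 87.4 and 94.5 CPM in D and at 100.2, 88.9, 96.2 and 97.2 CPM in M. D held both the highest and the lowest library of the 8. The log2 difference was -0.04 (95% interval -0.26 to 0.17, adjusted p = 0.751), and its sign turned without D replicate 2 (0.03, adjusted p = 0.835). The interval leaves room for a decrease of up to 0.26 or an increase of up to 0.17 on the log2 scale.

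Both caspases rose. Their genes are neighbours on chromosome 9, Casp1 from 5298517 to 5307281 and Casp4 from 5308849 to 5336791. Casp1, the protease of the canonical inflammasome, was at 61.2, 55.4, 57.2 and 57.7 CPM in D and at 45.9, 44.5, 46.2 and 46.7 CPM in M. Its D and M groups were both tight and stood apart, and the increase was 1.26-fold (log2 0.34 ± 0.06, adjusted p = 0.00211).

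Casp4 was at 17.7, 27.9, 29.3 and 27.9 CPM in D and at 15.5, 18.3, 17.0 and 14.1 CPM in M. In D replicates 2 to 4 it was well above every M library, while D replicate 1 fell inside the M range. The increase over all libraries was 1.58-fold (log2 0.66 ± 0.15, adjusted p = 0.00821). The call ended with curated transcripts only (0.53, adjusted p = 0.298) and with the most abundant transcript only (0.51, adjusted p = 0.350). Relative to Casp1, the TPM of Casp4 was 0.323 in D replicate 1 and 0.540 to 0.554 in the other D libraries, against 0.324 to 0.443 in M.

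The gasdermins differed in how they moved. Gsdmd, the pore-forming substrate of both caspases, lies on chromosome 15 (75862144 to 75867408) and was at 99.8, 95.6, 114 and 106 CPM in D and at 98.2, 92.5, 94.5 and 88.5 CPM in M. D replicate 2 lay inside the M range. The log2 difference was 0.15 ± 0.07 (95% interval -0.0048 to 0.31) and did not pass (adjusted p = 0.119).

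Gsdme, first known as the deafness gene Dfna5, lies on chromosome 6 (50207401 to 50263857) and showed the largest fold of the 10 members. It was at 43.6, 52.0, 81.5 and 55.0 CPM in D and at 28.2, 28.9, 36.0 and 33.7 CPM in M. All D libraries lay above all M libraries, and D replicate 3 stood highest. The increase was 1.83-fold (log2 0.87 ± 0.18, adjusted p = 0.00501). The TPM of Gsdme relative to that of Gsdmd was 0.447 ± 0.0965 in D and 0.273 ± 0.0387 in M, with no overlap between the groups.

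Per length, Gsdmd was the most abundant member in both groups, at 108 TPM in D and 104 TPM in M on average. In M it was followed by Pycard (87.4 TPM), then Aim2 and Casp1 (59.7 TPM each), whose library ranges overlapped. In D, Pycard (79.7 TPM), Aim2 (77.7) and Casp1 (70.9) formed one group whose neighbours did not differ beyond their ranges. Below them in both groups came Nlrp3, Gsdme, Casp4 and Mefv, neighbours again overlapping in range: in D Gsdme at 48.5, Nlrp3 at 45.7, Casp4 at 34.5 and Mefv at 26.9 TPM, and in M Nlrp3 at 32.8, Gsdme at 28.4, Casp4 at 23.1 and Mefv at 18.4 TPM. Nlrc4 (3.91 and 5.53 TPM in D and M) and Nlrp1b (0.933 and 1.36 TPM) lay apart at the bottom. The TPM of the 10 genes summed to 479 to 513 in D and 406 to 442 in M.

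Ratios between members set them against each other within a library. The ratio of Casp1 to Pycard in TPM was 0.900 ± 0.0929 in D and 0.684 ± 0.025 in M, and the groups did not overlap. The ratio of Nlrp3 to Nlrc4 was 11.7 ± 1.21 in D and 6.07 ± 1.31 in M, again without overlap. Among the sensors that rose, ratios stayed within range of each other: Mefv to Nlrp3 was 0.592 ± 0.038 and 0.563 ± 0.0393, and Aim2 to Nlrp3 was 1.71 ± 0.0725 and 1.83 ± 0.154. These ratios are descriptions with no test. Over the 8 libraries, the member whose centred log2 CPM lay nearest to that of Nlrp3 was Aim2 (root mean square difference 0.0814), then Mefv (0.0944). The nearest of all tested genes to Nlrp3 were Chsy1 (0.0410) and Srgn (0.0491), to Casp1 they were Got2 (0.0382) and Erp44 (0.0388), and to Gsdmd Iscu (0.0237) and Atg5 (0.0262). Centring was on the mean of all 8 libraries, so this measure includes the difference between D and M. Near genes therefore have similar log2 fold changes, such as 0.59 for Chsy1 and 0.55 for Srgn beside 0.57 for Nlrp3. Likeness within a group was not measured.

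Of the 55 RefSeq transcripts of the members, 33 held enough counts for testing. Only 1 passed at the transcript level, the single Casp1 transcript NM_009807 (adjusted p = 0.0260), against 4.02% of all tested transcripts, and a further 10 had an unadjusted p under 0.05. With the replicate block none passed, and 6 passed without D replicate 1. No member transcript passed the test for a changed share within its gene (0 of 31 by edgeR's diffSpliceDGE, 0 also at an unadjusted p under 0.05; 0.86% of all transcripts tested passed). Nlrp3 was carried mainly by NM_001359638, at 69.4% of its TPM in D and 71.9% in M. Gsdme was carried almost wholly by NM_018769, at 94.2% and 92.6%, and Gsdmd by NM_026960, at 91.6% and 88.7%. Aim2 was spread over 23 listed transcripts, with NM_001013779 at 47.2% and 48.4%. The split was unsteady between replicates of one group for the longer lists: XM_006532858 of Nlrp3 took 22.3% in D replicate 1 and was listed at 0 in D replicates 2 and 3, and NM_007609 of Casp4 ranged from 38.8% to 84.1% over the M libraries. In all, 33 of the 55 transcripts were listed at 0 in at least 1 library.

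**Figure D3:**
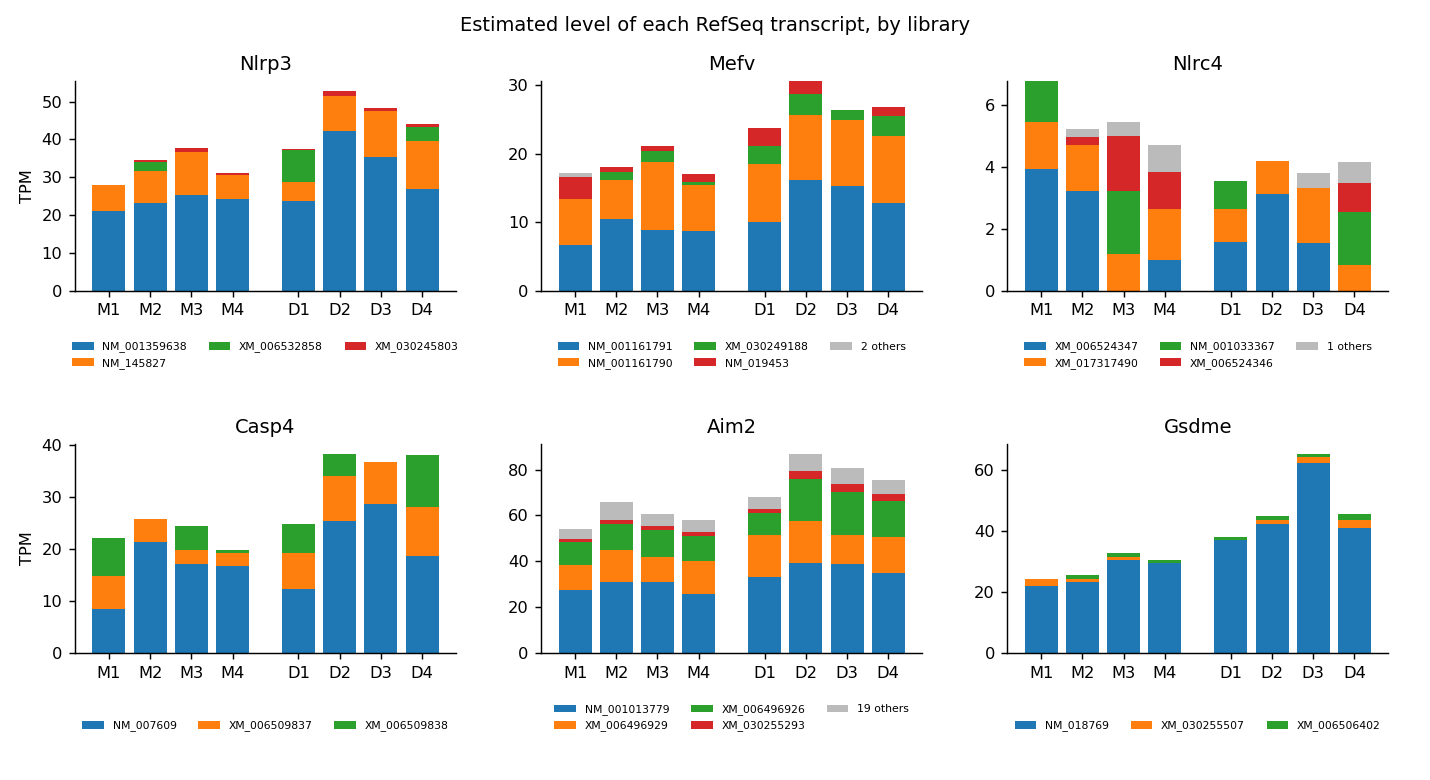
Estimated TPM of each RefSeq transcript (stacked colours; grey sums the rest) in each M and D library for 6 members. Gsdme is nearly all NM_018769 in each bar, Aim2 keeps a similar mix, and the mix of Nlrc4 and Casp4 changes from library to library within a group.

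The rest of the pathway was read from lists of 57 further genes, of which 53 were in the table and 46 tested. Of these, 26 rose and 4 fell, 65.2% against 34.7% of all genes tested, with a median log2 fold change of 0.30. The split depended on the scaling: with library totals in place of TMM factors 17 of the 46 passed as higher and 5 as lower, beside 4870 of the 12839 genes, and on log2(FPKM + 1) 15 of 43 passed as higher and 4 as lower, beside 4376 of 10987 genes. Other sensors and NAIP receptors rose in 7 of 8 tested cases, against 17.4% of all genes tested. Ifi204, an interferon-induced DNA sensor, rose from 21.3 ± 6.87 CPM in M to 75.8 ± 26.3 in D (log2 1.83 ± 0.30, adjusted p = 0.00280). Nlrp12, a regulator in myeloid cells, rose from 56.4 ± 9.91 to 95.3 ± 17.4 CPM (0.76 ± 0.15, adjusted p = 0.00415). The NAIP receptors that signal through NLRC4, Naip2, Naip5 and Naip6, rose by log2 0.33 to 0.38 (adjusted p = 0.0226 to 0.0343) in the libraries where Nlrc4 itself was lower. Their calls were fragile: each ended with library totals in place of TMM factors (0.22 to 0.27, adjusted p = 0.0581 to 0.0715), that of Naip2 with the replicate block (0.32, adjusted p = 0.0580), and without M replicate 4 all 3 were lost (0.31 to 0.35, adjusted p = 0.0649 to 0.0852). The Naip2 call was also lost when D replicate 3 or 4, or M replicate 1, 2 or 3, was left out, that of Naip5 without D replicate 2 or M replicate 2 or 3, and that of Naip6 without D replicate 2 (0.24 to 0.36, adjusted p = 0.0509 to 0.0866). Nlrp1a, a paralog of Nlrp1b, rose by 0.37 ± 0.10 (adjusted p = 0.0168), a call lost in 9 of 25 alternatives, among them library totals (0.26, adjusted p = 0.0698), log2(TPM + 1) (0.24, adjusted p = 0.0737) and leaving out M replicate 2 (0.32, adjusted p = 0.0514).

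Of 12 genes acting around NLRP3, 3 rose and 2 fell, 41.7% called against 34.7% of all genes tested. Nek7, the kinase that bridges NLRP3 subunits, rose from 82.7 ± 6.89 to 101 ± 4.59 CPM (log2 0.28 ± 0.07, adjusted p = 0.0130), a call lost with library totals (0.18, adjusted p = 0.0609). Txnip, a binder of thioredoxin that high glucose is known to induce, rose from 238 ± 26.5 to 406 ± 127 CPM (0.77 ± 0.20, adjusted p = 0.0159). Ddx3x rose from 567 ± 27.9 to 660 ± 48.5 CPM (0.22 ± 0.08, adjusted p = 0.0469), close to the threshold and with overlapping groups. The Ddx3x call was not followed through the alternatives. Panx1, a channel that opens on caspase cleavage, fell from 23.4 ± 2.28 to 15.8 ± 1.49 CPM (-0.57 ± 0.10, adjusted p = 0.00209). The chaperone gene Hsp90ab1 fell from 1817 ± 133 to 1489 ± 160 CPM (-0.29 ± 0.10, adjusted p = 0.0381); this call ended when any library but D replicate 1 or M replicate 1 was left out (-0.21 to -0.29, adjusted p = 0.0746 to 0.111). Of the regulators of pyrin and NLRP1B, 2 of 6 rose and the others did not pass. That is 33.3%, against 34.7% of all genes called in either direction and 17.4% called higher. Pstpip1, a partner of pyrin, rose from 156 ± 7.88 to 213 ± 26.1 CPM (0.45 ± 0.09, adjusted p = 0.00352). The GTPase gene Rhoa rose from 597 ± 27.6 to 696 ± 18.3 CPM (0.22 ± 0.07, adjusted p = 0.0255). The Pstpip1 value was 0.09 with the most abundant transcript only (adjusted p = 0.697), and Rhoa missed the threshold with library totals (0.12, adjusted p = 0.157) and when D replicate 2 or 4, or else M replicate 2, 3 or 4, was left out (0.20 to 0.25, adjusted p = 0.0519 to 0.0853).

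Of the genes listed around lipopolysaccharide and caspase-11, 6 of 7 tested rose, against 17.4% of all genes tested, with a median log2 fold change of 0.73. Hmgb1 was the exception. The list was not split by whether a gene aids or restrains caspase-11. Most of the listed genes are interferon-inducible GTPases. Irgm2 stood at 49.2, 50.7, 84.7 and 68.8 CPM in D and at 17.7, 19.9, 29.0 and 22.5 CPM in M, without overlap, an increase of 2.84-fold (log2 1.51 ± 0.20, adjusted p = 0.000782). Gbp7 stood at 31.0, 32.1, 45.4 and 48.7 CPM in D and at 10.3, 15.6, 15.4 and 14.1 CPM in M, an increase of 2.83-fold (1.50 ± 0.18, adjusted p = 0.00029). The guanylate-binding protein genes Gbp2 (8.85 ± 1.26 to 31.8 ± 14.8 CPM, log2 1.84 ± 0.30, adjusted p = 0.00250) and Gbp5 (2.69 ± 0.449 to 4.47 ± 0.499 CPM, 0.73 ± 0.16, adjusted p = 0.00689) rose too. Genes of the interferon-induced list, which shares none of the members, rose in 9 of 11 tested cases (median log2 1.33), against 17.4% of all genes tested. The summed level of that list was 652 to 1248 CPM in D and 319 to 502 CPM in M.

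Among the other caspases, Casp12, a relative of Casp4 in the same gene cluster, was scarce and rose from 0.324 ± 0.156 to 1.18 ± 0.478 CPM (1.85 ± 0.39, adjusted p = 0.00528). Casp8 and Casp9 did not pass. Of the other gasdermins, Gsdma, Gsdma3, Gsdmc2, Gsdmc4 and Pjvk did not hold enough counts for testing. Ninj1, which ruptures the membrane once gasdermin pores have formed, fell from 86.2 ± 9.05 to 68.1 ± 1.87 CPM (-0.34 ± 0.08, adjusted p = 0.00813).

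All 6 genes of cytokines at the end of the pathway and of their antagonists passed the test, 5 as higher and 1 as lower, with a median log2 fold change of 1.07. Over all tested genes, 17.4% passed as higher and 17.3% as lower. Il1b stood at 77.8, 257, 155 and 158 CPM in D and at 18.1, 57.8, 80.3 and 33.3 CPM in M. M replicate 3 lay above D replicate 1, and the spread within each group was wide. The increase was 3.42-fold (log2 1.77 ± 0.50, adjusted p = 0.0257), and the call ended without D replicate 2 (1.46, adjusted p = 0.0631), D replicate 3 (1.81, adjusted p = 0.0574) or M replicate 4 (1.64, adjusted p = 0.0702), and with no low-count filter (1.77, adjusted p = 0.0663). Il18 was scarce, at 1.26, 2.20, 2.98 and 1.72 CPM in D and 0.782, 0.899, 0.952 and 0.803 CPM in M, and rose 2.36-fold without overlap (1.24 ± 0.28, adjusted p = 0.00733). The antagonists rose with them: the decoy receptor Il1r2 from 35.4 ± 7.73 to 87.4 ± 18.7 CPM (1.30 ± 0.19, adjusted p = 0.000926) and the receptor antagonist Il1rn from 50.3 ± 11.5 to 94.2 ± 11.7 CPM (0.91 ± 0.15, adjusted p = 0.00202). Il18bp, the soluble inhibitor of interleukin-18, also rose. Il1a alone fell, from 1.57 ± 0.307 to 0.883 ± 0.276 CPM (-0.82 ± 0.27, adjusted p = 0.0348), and missed the threshold when any library but D replicate 4 or M replicate 3 was left out (-0.67 to -0.87, adjusted p = 0.0564 to 0.101).

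**Figure D4:**
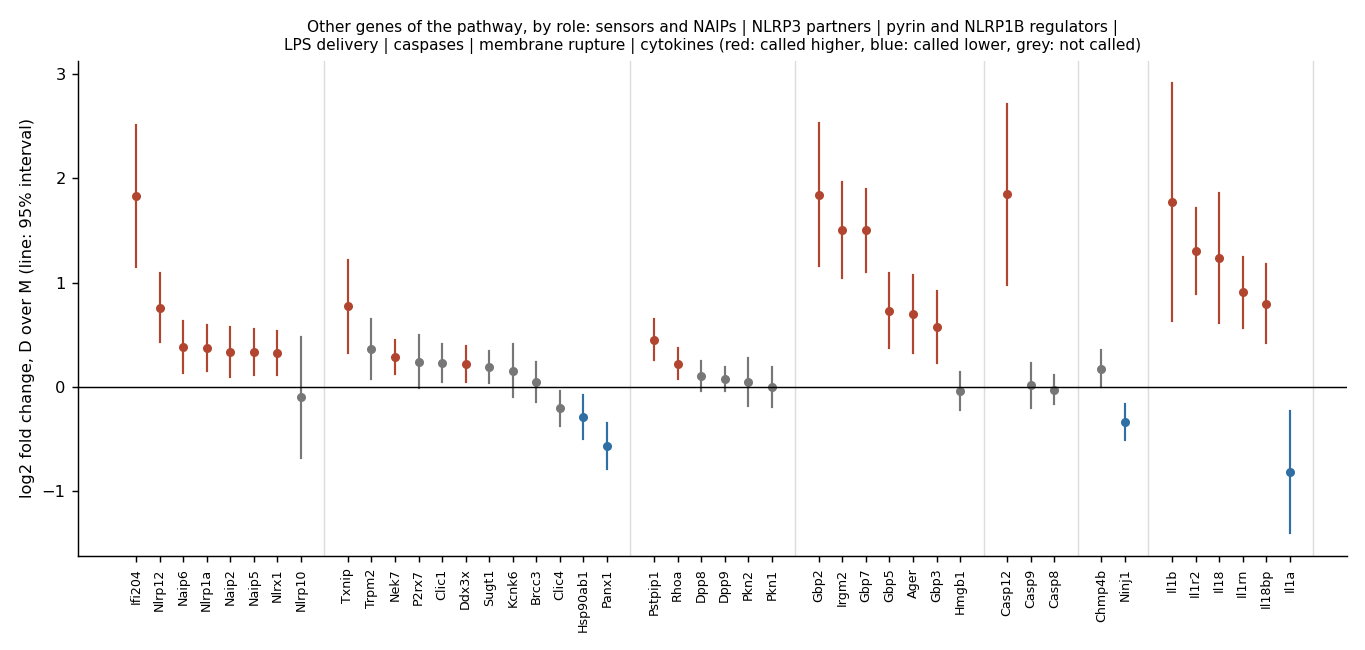
Log2 fold change, D over M (y axis), with its 95% interval for tested pathway genes outside the 10 members, grouped by role from left to right. Values above 1.5 are those of Ifi204 among the sensors and of Gbp2, Irgm2 and Gbp7 among the genes listed around lipopolysaccharide and caspase-11. The others are Casp12 among the caspases and Il1b among the cytokine genes.

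Markers of several cell types also differed between the groups. Over all tested genes, 17.4% were called higher and 17.3% lower. Of 15 neutrophil genes 11 rose (median log2 0.70), and their summed level was 45536 to 70486 CPM in D and 39328 to 41226 CPM in M. The largest term of that sum, S100a9, did not pass the edgeR test (adjusted p = 0.126). Neither did Elane, Mpo and Prtn3 (log2 0.25, -0.05 and 0.09, adjusted p = 0.145, 0.775 and 0.427). Of 12 macrophage genes 8 rose, with sums of 8990 to 14268 and 6472 to 7356 CPM, and of 7 monocyte genes 5 rose, with sums of 4984 to 7514 and 3971 to 4462 CPM. Lyz2 gave most of the macrophage sum, 6481 of 8990 CPM in D replicate 1. Neutrophils express Lyz2 too, so that sum does not speak of macrophages alone. Of 10 B cell genes 8 fell (median log2 -2.92), with sums of 69.6 to 246 CPM in D and 1166 to 1519 CPM in M. No marker on these lists was at 0 in every library. Among the D libraries, the sums of the macrophage, monocyte and neutrophil lists were lowest in replicate 1 and highest in replicate 3. Nlrp3, Nlrc4, Nlrp1b, Mefv, Aim2, Casp4 and Gsdme were lowest in D replicate 1, but Casp1 and Pycard were highest there, at 61.2 and 111 CPM. Aim2, Casp4, Gsdmd and Gsdme were highest in D replicate 3. Nlrp3 and Mefv were highest in D replicate 2, and Nlrc4 and Nlrp1b in D replicate 4. The part of cell mixture in the member values was not tested.

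**Figure D5:**
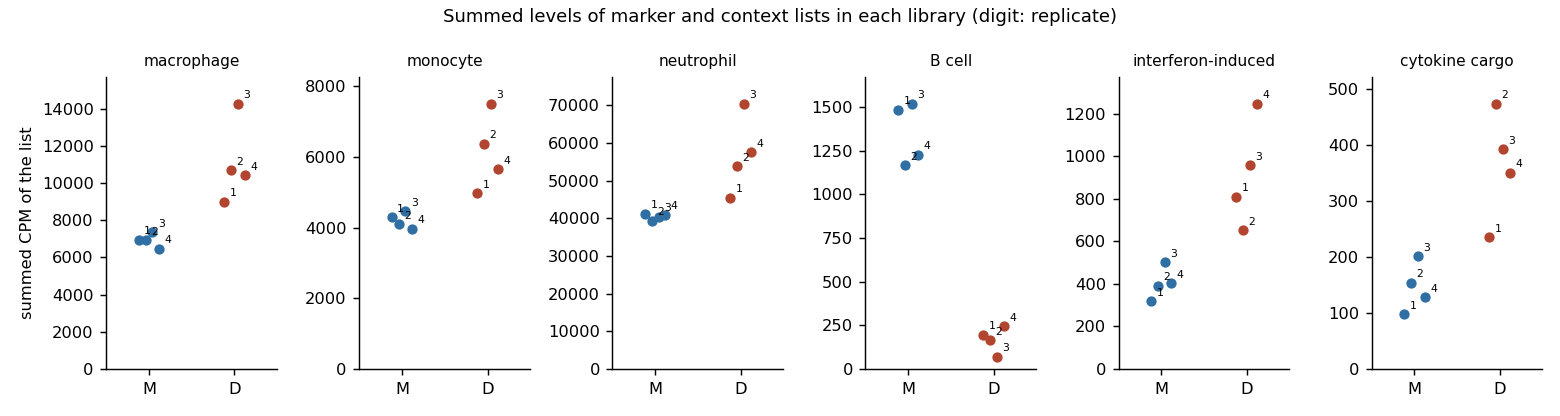
Summed CPM (y axes from 0) of the genes of 6 lists in each M and D library, with the replicate number beside each point. The macrophage, monocyte, neutrophil, interferon-induced and cytokine sums are higher in all D than in all M libraries, D replicate 1 is the lowest D library for the first 3, and the B cell sums are 69.6 to 246 CPM in D and 1166 to 1519 CPM in M.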

How the data were processed

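The files hold polyadenylated RNA of 8 libraries, 4 D and 4 M, sequenced as DNA nanoballs, per the labels' protocols. Per the labels' design text, SOAPnuke 1.5.6 filtered the reads and a program written as HISTA2 2.1.0 aligned them to mm10 (GRCm38). The quantifier, the annotation release and the strand setting were not given in the sources used here. Each row is a RefSeq transcript with the authors' estimated counts, raw and in 37.3% to 40.8% of cases whole. Per the file headers, the authors also gave TPM (corrected for transcript length, with one sum for all libraries) and FPKM (corrected for length and for library size). A deposited signal of normalized counts matched estimated counts, rounded up, over a factor of 0.953 to 1.063 for each library, and had no other use. The authors' 8 columns of means were left out. Curated transcripts held 80.4% of the counts.

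Transcript counts of a gene were added and the sum was rounded. Symbols came from the RefSeq gene table (17836 of 17890 genes), as did the GRCm38.p6 positions. Genes were tested by quasi-likelihood with edgeR 4.0.16 in R 4.3.3, with group only, TMM factors (0.913 to 1.01 in D, 1.03 to 1.05 in M), a robust fit and the default low-count filter, filterByExpr (a count of 10, a total of 15). P-values were adjusted by Benjamini-Hochberg over all tested genes, with a threshold of 0.05, and the biological coefficient of variation was 12.4%. Log2 fold changes are given ± SE, CPM and TPM as mean ± SD over 4 libraries. Transcripts were tested in the same way and their usage with diffSpliceDGE; those p-values leave out the error of splitting reads between transcripts. The script was tested on simulated counts. No 2 replicates were as alike as sampling noise would make them (chi-square 6.19 to 63.2 a gene).

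Replicates are numbered 1 to 4 in both groups. Deviations of same-numbered D and M libraries from their group means correlated at 0.107, 0.129, 0.112 and 0.183, those of other pairs at -0.170 to 0.0643. Every same-numbered pair was above 0.1, although the labels give the numbers no meaning. The main fit had group only, so its p-values leave out a possible pairing of the samples by number. With the number as a block, 6 members were called, all higher. The fit with this block is given where it changes a call. Alternatives were other scalings, filters, thresholds and units, DESeq2 1.42.0, voom (limma 3.58.1), fewer transcripts and each library left out. A fit without D replicates 1 and 3 was added after the data were seen.

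The members, the gene lists and the tests were chosen with earlier results of these data known. By rule the text names all members, up to 2 called genes of each role list with the lowest p, Il1b and Il18, and the 2 genes nearest to Nlrp3, Casp1 and Gsdmd. Nlrp1a, the NAIP genes, Txnip, Ddx3x, Hsp90ab1, Gbp2, Gbp5, Hmgb1, Casp8, Casp9, Il18bp and Il1a were named after their values were seen. Promoters are RefSeq entries; no protein sequences were used here. A few genes and motifs of the lists are not reported here one by one, in text or plots, and remain in the counts.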

Additional observations from a re-analysis of the deposited data

Results flagged for a closer look

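In 68 groups of 4 libraries (34 named genes in D and M), 5 had 1 library far from the other 3; chance flags about 1 in 20 such groups. Casp4 and Nlrc4 were the members among them, both through D replicate 1: Casp4 was at 17.66 CPM against 27.88 to 29.29 CPM in the other D libraries, and Nlrc4 at 7.647 CPM against 9.09 to 9.222 CPM. Nlrp12 stood high in M replicate 3, at 71.17 CPM against 50.23 to 52.49 CPM. Pstpip1 stood high in D replicate 3, at 251.7 CPM against 198.2 to 202.3 CPM, and Casp12 in D replicate 2, at 1.889 CPM against 0.8826 to 1.042 CPM.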

How the results depend on the processing

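Mefv, Aim2, Casp1 and Gsdme kept their direction and passed the threshold in all 25 alternatives run, and Nlrp3 and Casp4 in 23; Nlrc4 lost its call in 11, with adjusted p up to 0.919. The sign of Pycard, never called, turned once: with 1 library left out it ran from -0.12 (without D replicate 1) to 0.030 (without D replicate 2). The 7 member calls became 4 with curated transcripts only and 4 with the most abundant transcript only, 6 with the replicate block and 6 to 7 with 1 library left out. The 4456 calls over all genes became 2531 with curated transcripts, 2036 with the most abundant transcript, 2324 at a threshold of 0.01, and 3458 to 5369 with 1 library left out. The 30 pathway calls became 18, 12 and 16 in those settings, 19 on log2(FPKM + 1), 33 with the replicate block and 20 to 32 with 1 library left out. The single member transcript called became 0 with library totals, at a threshold of 0.01 and with the replicate block, 4 at a threshold of 0.1, 3 with a filter of 50 counts, and 0 to 6 with 1 library left out. With the most abundant transcript only, Nek7 (0.21, adjusted p = 0.263), Txnip (0.72, adjusted p = 0.0581), Casp12 (2.08, adjusted p = 0.0838) and Il18 (1.42, adjusted p = 0.186) lost their calls. The cause of these changes was not tested. Library totals in place of TMM factors moved the median of all genes by -0.10 and the share of calls that were higher from 50.1% to 31.3% (1524 higher, 3346 lower); it was 33.1% on log2(TPM + 1) and 31.0% on log2(FPKM + 1). DESeq2's test called 7 members. Among the 34 genes refitted with the replicate block, it changed the calls of Nlrc4 and Naip2 and of none of the others. Low counts limit the precision for scarce genes such as Nlrp1b, Nlrc4, Gbp5, Casp12, Il18 and Il1a.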

Other observations

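The TPM ratio of Nlrp3 to its adaptor gene Pycard was 0.383, 0.766, 0.680 and 0.544 in D replicates 1 to 4 and 0.314, 0.423, 0.421 and 0.346 in the M replicates, with D replicate 1 inside the M range. The ratio of Il18 to Il1b, the precursor genes of both caspase-1 cytokines, was 0.018 ± 0.00675 in D and 0.0305 ± 0.0191 in M (SD, n = 4), and the groups overlapped. Other marrow cell types moved unevenly in the same libraries, where 17.4% of all tested genes were called higher and 17.3% lower. The summed level of 7 mast cell and basophil genes was 791 to 1179 CPM in D and 453 to 530 CPM in M, with 6 called higher. Of 6 dendritic cell genes 3 were called lower, with sums of 56.4 to 109 CPM in D and 131 to 150 CPM in M. The part of these cells in the member values was not tested.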
